A study of Homo sapiens with 6 samples.

Results

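The 10 genes described here encode the proteins that cut, export and bind microRNAs. They are DROSHA, DGCR8, XPO5, DICER1, TARBP2, PRKRA and the Argonaute genes AGO1, AGO2, AGO3 and AGO4. They were chosen by gene symbol, and all 10 of the 63190 gene identifiers in the table were found, with 111 of its 207167 transcripts. RNA-seq of ribosomal RNA-depleted total RNA was compared between HEK293T-Rex cells overexpressing the DIS3L2 D391N mutant (3 libraries) and control HEK293T-Rex cells (3 libraries). The parental line derives from human embryonic kidney and carries a tetracycline repressor. D391N is a Flag-tagged, catalytically inactive form of the exoribonuclease DIS3L2, stably integrated and switched on with doxycycline. It was expressed over the endogenous wild-type gene, and the methods do not say whether the control cells also received doxycycline. The D391N cells came from a single stable line, so an effect of the mutant and an effect of that line cannot be told apart. The labels do not say that the libraries came from separate cultures, so the p-values measure the spread between these libraries, which may be technical. The methods describe 3 libraries run together in a single lane without naming them, so lane and group may coincide.

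MicroRNAs are cut from hairpins in long primary transcripts by the nuclear Microprocessor, made of the ribonuclease III enzyme DROSHA and its double-stranded RNA-binding partner DGCR8. XPO5 carries the precursor to the cytoplasm, where DICER1, with its partners TARBP2 and PRKRA, cuts off the loop. An Argonaute protein keeps a single strand of the duplex and uses its seed to find target mRNAs. DIS3L2 is known for degrading let-7 precursors that TUT4 and TUT7 have uridylated after LIN28 binding, which ties the overexpressed enzyme to this pathway.

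The Microprocessor also acts on the mRNA of its own subunit. The DGCR8 gene holds the hairpins of miR-1306 and miR-3618, and their mature sequences are given with those of let-7 members, the best known precursors handled by DIS3L2. Capitals mark the seed, bases 2 to 8 from the 5′ end, and the sequences and positions are those of RefSeq on GRCh38.p14.
hsa-miR-3618: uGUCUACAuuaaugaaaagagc
hsa-miR-1306-5p: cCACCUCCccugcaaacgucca
hsa-miR-1306-3p: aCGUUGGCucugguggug
hsa-let-7a-5p: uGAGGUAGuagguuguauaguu
hsa-let-7f-5p: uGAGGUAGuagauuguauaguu
hsa-let-7i-5p: uGAGGUAGuaguuugugcuguu
The let-7 sequences share the seed GAGGUAG, whereas the sequences within DGCR8 each have a seed of their own. hsa-miR-3618 lies at chr22:20085797-20085818 and hsa-miR-1306-5p at chr22:20086072-20086093, both on the plus strand and inside DGCR8 at chr22:20080241-20111872.

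The hairpins themselves were at the limit of detection in these libraries. The precision of a deposited value can be expressed as the number of reads it is worth, which reads shared between transcripts also lower. On this scale MIR1306 reached at most 0.0165 reads in any library and MIR3618 at most 0.559. Of 11 let-7 hairpins, only MIRLET7F1 was worth a mean of at least 3 reads, at 3.53. Of all 2835 microRNA hairpin transcripts in the table, 6.03% passed that level. No difference between groups is therefore given for the let-7 and DGCR8 hairpins, although MIR3618 passed the expression filter of the test over all genes described below. The values that follow concern the mRNAs of the protein machinery.

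Levels are given in RPKM, reads scaled to transcript length and library size, summed over all transcripts of a gene. The estimated depth of the libraries ranged from 19120000 to 29070000 reads. DIS3L2 was checked as the expressed construct and measured 369, 467 and 512 RPKM in the D391N libraries and 11.8, 12.9 and 14.6 RPKM in the control libraries. The HEK293 markers VIM, KRT8 and KRT18 were well expressed, from 26.5 RPKM for KRT18 to 180 RPKM for KRT8, and each of these was lower in every D391N library than in every control library. The neurofilament gene NEFL lay at 26.9 to 88.0 RPKM, whereas PAX2 lay at 1.31 to 1.93 RPKM and NEFM at no more than 0.638 RPKM, so these last markers of the line were low or nearly absent. Of the markers of other cell types, PTPRC, ALB, HBB and COL1A1 were all at 7.12 RPKM or lower, and PECAM1 was not matched. The libraries were not equally alike. Replicate 1 of D391N correlated at 0.885 with replicate 2 of D391N but at 0.938 to 0.956 with the control libraries and at 0.935 with replicate 3 of D391N (Pearson correlation of log2 gene levels), although its DIS3L2 level was that of its label. Replicate 2 of D391N had the lowest correlations, at 0.824 to 0.865 with the control libraries. Calls among the machinery genes that change without replicate 1 of D391N are therefore given both ways.

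The machinery was expressed over a wide range. In control cells DROSHA had the highest level per length, at 134 ± 7.999 RPKM (SD, n = 3), followed by DICER1 at 87.4 ± 10.1, XPO5 at 51.2 ± 0.689 and AGO2 at 40.3 ± 4.38 RPKM. DGCR8 at 23.8 RPKM, AGO1 at 18.6, PRKRA at 18.5, AGO3 at 12.9, AGO4 at 11.6 and TARBP2 at 10.3 RPKM followed. Neighbours in this order had control ranges that did not overlap, except AGO1 and PRKRA, AGO3 and AGO4, and AGO4 and TARBP2. The order depends on short isoforms, which weigh as much as long ones in a sum of RPKM. Counted in reads scaled to library size alone (RPM), over transcripts with a known length, DICER1 was the most abundant in control cells at 384 RPM, although its top transcript by RPKM has no known length and is left out, and TARBP2 the least at 9.77 RPM. TARBP2 thus rested on an estimated 101 to 329 reads a library, compared with 4469 to 6945 for DROSHA.

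**Figure D1:**
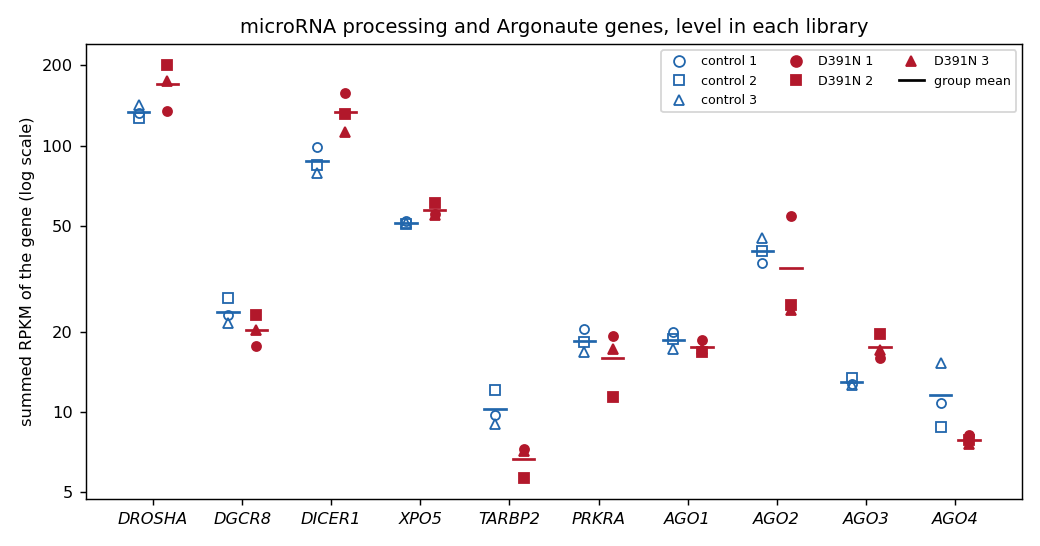
Summed RPKM of each of the 10 genes (log axis) in the 3 control libraries (open blue) and the 3 D391N libraries (filled red), with the marker shape giving the replicate number and the bar the group mean. DICER1 and AGO3 lay higher, and TARBP2 and AGO4 lower, in every D391N library than in every control library, while AGO2 was at 54.5 RPKM in replicate 1 of D391N and at 25.2 and 24.1 RPKM in the other D391N libraries.

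No gene of the 10 differed between D391N and control cells at an adjusted p under 0.05. The test was limma on log2(summed RPKM + 0.1) over the 20714 genes with a mean of at least 1 RPKM, with Benjamini-Hochberg adjustment, and it called 0.14% of these genes, 1 higher and 28 lower. At an unadjusted p under 0.05, 3 of the 10 genes passed, 2 higher and 1 lower, compared with 22.7% of all genes tested, 6.76% higher and 16% lower. The groups did not overlap for 5 of the 10 genes, 3 higher and 2 lower in D391N, and this was the case for 31.2% of all genes tested. In bulk libraries, fewer cells expressing a gene and less RNA per cell cannot be told apart. The median log2 difference was -0.16 over the 10 genes and -0.09 over all genes tested. Centring each library on its median moved the latter to 0.13, a shift larger than the difference of AGO1.

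**Figure D2:**
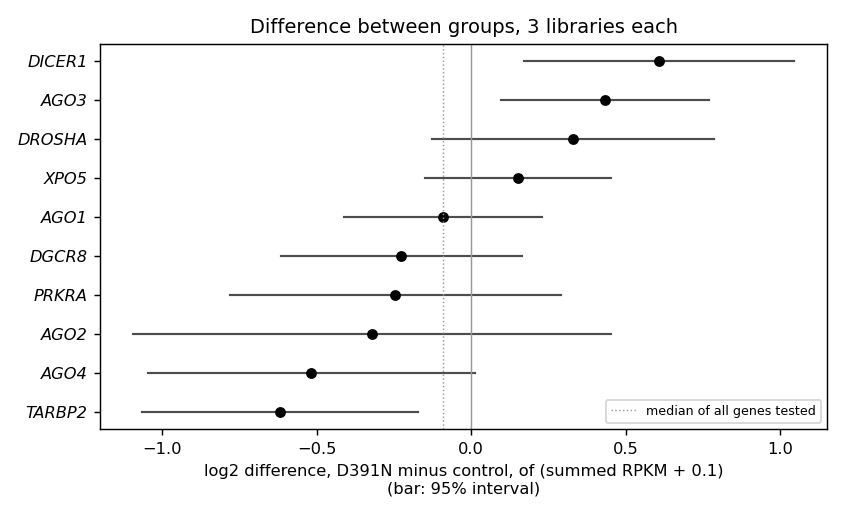
Log2 difference (D391N minus control, of summed RPKM + 0.1) of the 10 genes with its 95% interval, 3 libraries in each group. The intervals of DICER1, AGO3 and TARBP2 exclude 0 before adjustment for the number of genes tested. The direction of XPO5 and AGO2 changed when only protein-coding transcripts were summed, that of XPO5 also in summed reads, and that of AGO1 after median centring, quantile normalization or in summed reads.

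For the Microprocessor, the level of DROSHA (ENSG00000113360, chr5:31400494-31532093 in GRCh38.p14) was 135, 201 and 175 RPKM in D391N cells and 133, 127 and 142 RPKM in control cells. Replicates 2 and 3 of D391N were above all control libraries, while replicate 1 fell within their range. The log2 difference was 0.33 ± 0.19 (SE), with an adjusted p of 0.344 in limma. DGCR8 (ENSG00000128191), the double-stranded RNA-binding subunit, measured 17.6, 23.1 and 20.3 RPKM in D391N cells and 23.1, 26.7 and 21.5 RPKM in control cells. The groups overlapped. Its log2 difference was -0.23 ± 0.16 (SE), with a 95% interval from -0.62 to 0.17. Within a library, DROSHA exceeded DGCR8 by 7.65 to 8.70 times in D391N cells and by 4.74 to 6.62 times in control cells. These ratios of sums did not overlap between groups, but their difference was not tested, and the levels of each gene overlapped. The DROSHA sum includes short isoforms. For the long coding mRNAs DROSHA ENST00000513349 and DGCR8 ENST00000351989 the groups overlapped as well.

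Short isoforms carried much of the DROSHA sum. The transcript with the highest RPKM, ENST00000512302, is 585 nt long with 3 exons, and all its bases lie in the coding part of the longest DROSHA mRNA, between positions 960 and 1637. It measured 45.1, 57.8 and 49.8 RPKM in D391N cells and 37.1, 29.0 and 38.5 RPKM in control cells. These groups did not overlap, but the log2 difference of 0.55 ± 0.24 (SE) had an adjusted p of 0.298 in limma over 54671 transcripts. The transcript ENST00000513349, with 35 exons, took 58.5% of the DROSHA reads and showed 31.4, 28.3 and 36.6 RPKM in D391N cells and 31.8, 31.8 and 26.7 RPKM in control cells. It holds 4011 bases of the coding sequence of the longest DROSHA mRNA, and its groups overlapped, with a log2 difference of 0.09 ± 0.23 (SE). ENST00000512076, 1124 nt of internal coding sequence, took 11.5% of the RPKM sum and measured 15.5, 26.8 and 21.0 RPKM in D391N cells and 14.0 to 14.5 RPKM in control cells. Among the retained-intron forms the directions were mixed, with ENST00000512166 at 9.94, 14.0 and 18.3 RPKM in D391N cells and 4.90, 5.06 and 7.07 RPKM in control cells. ENST00000509608 went the other way, at 2.09, 3.17 and 7.96 RPKM in D391N cells and 11.7, 14.1 and 11.6 RPKM in control cells. These retained-intron transcripts were singled out after their values were seen, and neither passed the adjusted threshold.

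DGCR8 was divided between a coding and an intron-retaining form of similar length. ENST00000351989, the full-length coding mRNA, measured 5.99, 10.1 and 8.24 RPKM in D391N cells and 8.74, 8.43 and 7.31 RPKM in control cells. ENST00000495826, annotated as a retained intron although 2306 of its bases are shared with the coding sequence, measured 5.69, 7.03 and 4.38 RPKM in D391N cells and 7.03, 7.08 and 6.75 RPKM in control cells. Retained-intron transcripts held 56.1% of the DGCR8 RPKM sum on average in D391N cells and 60.9% in control cells, with overlapping groups. The total RNA was not selected for poly(A), so it includes unspliced nuclear RNA. Of 7432 words of 50 bases in the DGCR8 transcripts, 6.86% also occur in other genes, mostly on the opposite strand of a gene whose level was at most 0.606 RPKM.

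XPO5 (ENSG00000124571, chr6:43522334-43576038), the export receptor, had the smallest spread relative to its mean of the 10 genes in control cells. It measured 55.1, 60.9 and 55.0 RPKM in D391N cells and 52.0, 50.7 and 50.9 RPKM in control cells, so the groups did not overlap in the summed RPKM. The log2 difference was 0.15 ± 0.13 (SE) with an adjusted p of 0.506 in limma, but it was -0.27 over protein-coding transcripts only and -0.18 in summed reads. The full-length mRNA ENST00000265351, which took 79.2% of the XPO5 reads and was worth a mean of 2106 reads a library, measured 15.8, 14.3 and 18.3 RPKM in D391N cells and 21.2, 20.1 and 18.0 RPKM in control cells. Its log2 difference was -0.30 ± 0.22 (SE), opposite in sign to that of the gene sum. ENST00000398799, a nonsense-mediated decay form of 568 nt from the 5′ end of the gene, varied widely, at 8.40, 27.8 and 22.5 RPKM in D391N cells and 12.9, 9.98 and 18.1 RPKM in control cells. So did ENST00000450462, a retained-intron form of 633 nt, at 12.7, 7.34 and 3.29 RPKM in D391N cells and 7.14, 5.99 and 5.11 RPKM in control cells. Without ENST00000398799 the XPO5 sum was 32.4 to 46.7 RPKM in D391N cells and 32.8 to 40.8 RPKM in control cells, and the groups overlapped.

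DICER1 (ENSG00000100697, chr14:95086228-95158010) showed the largest higher value in D391N cells among the 10 genes. Its level was 158, 132 and 112 RPKM in D391N cells and 98.6, 84.8 and 78.8 RPKM in control cells. Every D391N library was above every control library, as was the case for 10.5% of all genes tested. The log2 difference was 0.61 ± 0.18 (SE), a 1.53-fold higher level with a 95% interval from 0.17 to 1.05, and the adjusted p was 0.140 in limma. Over the alternatives tried the adjusted p ranged from 0.055 to 0.356.

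The transcript that contributed most to DICER1, ENST00000532458, is absent from the annotation used for lengths and biotypes, so neither is given. It measured 77.7, 26.0 and 25.3 RPKM in D391N cells and 37.6, 25.5 and 29.0 RPKM in control cells, so replicate 1 of D391N was high on its own and the groups overlapped. Without this transcript the DICER1 sum was 80.1, 106 and 87.2 RPKM in D391N cells and 61.0, 59.3 and 49.8 RPKM in control cells, and the groups still did not overlap. Of the coding mRNAs, ENST00000527414 (6179 nt, 27 exons) measured 17.8, 38.2 and 25.3 RPKM in D391N cells and 12.6, 8.98 and 10.7 RPKM in control cells. ENST00000529720 (10374 nt, 30 exons), which includes 4258 bases of the 3′ UTR, measured 26.8, 23.4 and 12.7 RPKM in D391N cells and 12.3, 7.26 and 8.11 RPKM in control cells. Both contain the whole coding sequence of 5766 bases, and for both the lowest D391N library was above the highest control library. Their log2 differences were 1.27 ± 0.33 and 1.14 ± 0.37 (SE), with adjusted p of 0.166 and 0.211 in limma. Other coding mRNAs, chosen after their values were seen, did not separate the groups. ENST00000343455 (10384 nt) measured 5.30, 8.01 and 13.1 RPKM in D391N cells and 11.5, 11.6 and 6.76 RPKM in control cells. ENST00000541352 (5621 nt) measured 12.2, 5.62 and 10.2 RPKM in D391N cells and 11.8, 17.1 and 10.7 RPKM in control cells, a log2 difference of -0.54 ± 0.36 (SE). Of the 11 DICER1 transcripts tested, 8 had log2 differences above 0 and 3 below. The division of reads among these overlapping mRNAs was estimated by the authors' model, with posterior standard deviations of 0.10 to 0.23 on the log2 scale for ENST00000527414 and ENST00000529720. DICER1-AS1, a non-coding RNA from the opposite strand at the 5′ end of DICER1, measured 9.97, 10.7 and 7.05 RPKM in D391N cells and 9.80, 10.3 and 12.1 RPKM in control cells, and shared 33 of 12743 words of 50 bases with DICER1.

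**Figure D3:**
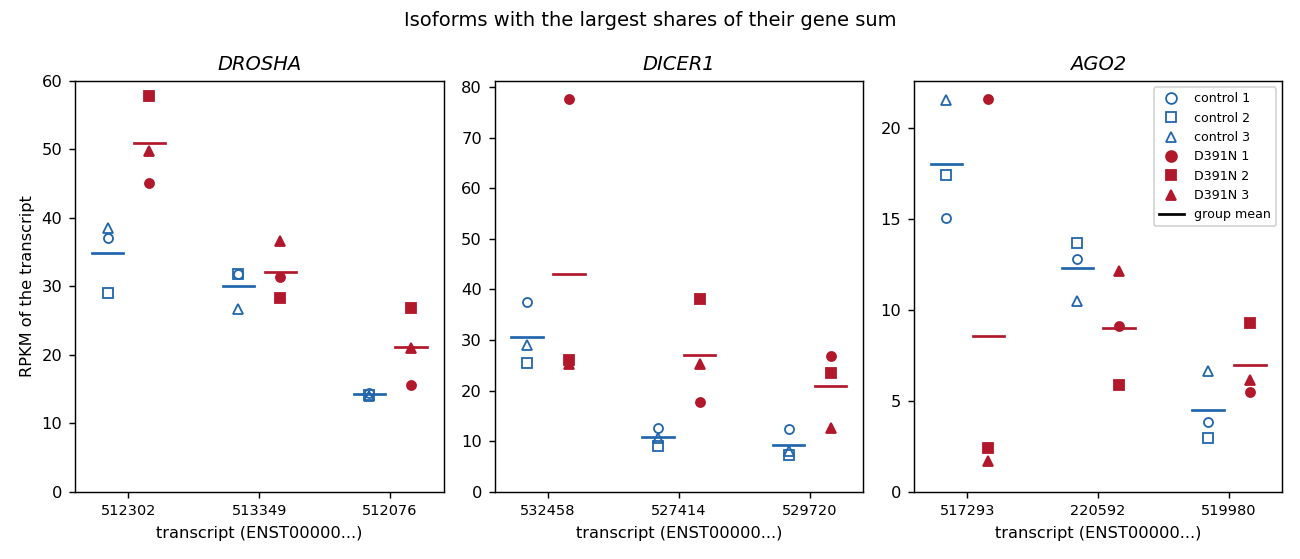
RPKM of the 3 transcripts with the largest shares of DROSHA, DICER1 and AGO2 in each control library (open blue) and D391N library (filled red), with bars at the group means and y axes that differ between genes. Replicate 1 of D391N stands alone for DICER1 ENST00000532458 (77.7 RPKM) and lies with the control libraries for AGO2 ENST00000517293 (21.6 RPKM).

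TARBP2 (ENSG00000139546, chr12:53500923-53506431), which holds DICER1 and the RNA duplex during Argonaute loading, had the largest lower value. It measured 7.24, 5.62 and 7.08 RPKM in D391N cells and 9.73, 12.1 and 8.997 RPKM in control cells. Every D391N library was below every control library, as for 20.7% of all genes tested. The log2 difference was -0.62 ± 0.19 (SE) with an adjusted p of 0.140 in limma, and -1.44 with an adjusted p of 0.046 when only protein-coding transcripts were summed, under which 593 of 11351 genes were called. Protein-coding transcripts held 11.7%, 23.1% and 30.1% of the TARBP2 sum in D391N cells and 38.4%, 39.5% and 34.1% in control cells. Single transcripts were measured imprecisely: none of the 20 was worth more than a mean of 25.6 reads, and 11 were worth under 3 reads in every library. Such low numbers can come from reads shared between isoforms as well as from few reads. The 7 protein-coding transcripts were each worth a mean of at most 1.83 reads, so the call over protein-coding transcripts rests on imprecise values. The coding ENST00000552817 measured 0.204, 0.554 and 0.571 RPKM in D391N cells and 2.03, 3.02 and 1.29 RPKM in control cells. It was worth a mean of 1.83 reads, so its log2 difference of -2.04 ± 0.53 (SE) rests on imprecise values. ENST00000546889, a retained-intron form with 736 of its bases outside the exons of the longest mRNA, was the most abundant at 1.67, 0.483 and 0.968 RPKM in D391N cells and 1.68, 1.93 and 1.53 RPKM in control cells. ENST00000549610, with 587 bases outside those exons, measured 1.04, 1.10 and 1.61 RPKM in D391N cells and 0.800, 1.27 and 0.312 RPKM in control cells. Of the words of 50 bases in TARBP2, 10.5% also occur, on the opposite strand, in ENSG00000270175. That gene measured 2.57, 2.51 and 2.14 RPKM in D391N cells and 4.82, 5.64 and 6.05 RPKM in control cells, also without overlap. Whether the alignment used strand is not stated, so reads from this shared stretch may have been counted for either gene.

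PRKRA (ENSG00000180228, chr2:178431414-178451175), the second double-stranded RNA-binding partner of DICER1 and an activator of the kinase PKR, measured 19.2, 11.3 and 17.2 RPKM in D391N cells and 20.4, 18.3 and 16.7 RPKM in control cells. Replicate 2 of D391N was the lowest library, and the groups overlapped. The log2 difference was -0.24 ± 0.22 (SE), and -0.02 without that library. The full-length coding mRNA ENST00000325748 measured 0.688, 1.72 and 1.71 RPKM in D391N cells and 4.48, 3.24 and 2.54 RPKM in control cells, with a log2 difference of -1.32 ± 0.43 (SE) and an adjusted p of 0.214 in limma. In replicate 1 of D391N its low value stood beside a high one of ENST00000424699, a nonsense-mediated decay form that shares the whole coding sequence of 939 bases, at 9.24 RPKM compared with 2.91 and 3.21 RPKM in the other D391N libraries and 5.61 to 5.92 RPKM in control cells. The posterior standard deviation of ENST00000325748 in that library was 1.12 on the log2 scale. ENST00000463882, a short intron-retaining form, was at 1.94 to 2.61 RPKM in D391N cells and 1.67 to 2.76 RPKM in control cells. The DICER1 level exceeded that of TARBP2 by 15.9 to 23.5 times in D391N cells and 7.03 to 10.1 times in control cells, and that of PRKRA by 6.55 to 11.6 times and 4.64 to 4.83 times. Both ratios were higher in every D391N library than in every control library, whereas that of PRKRA to TARBP2 overlapped, at 2.02 to 2.66 in D391N cells and 1.52 to 2.10 in control cells. The separation of DICER1 over TARBP2 follows from the gene levels, as DICER1 was higher and TARBP2 lower in every D391N library.

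AGO4, AGO1 and AGO3 lie side by side on the plus strand of chromosome 1, at chr1:35807636-35857890, chr1:35869761-35930532 and chr1:35930718-36072500, whereas AGO2 lies at chr8:140520156-140642313. AGO2 is the family member best known for cutting its target. No word of 50 bases was shared between transcripts of different Argonaute genes, so reads of this length that match exactly separate the paralogs. AGO3 was 15.9, 19.5 and 17.0 RPKM in D391N cells and 12.8, 13.3 and 12.6 RPKM in control cells. The groups did not overlap, with a log2 difference of 0.43 ± 0.14 (SE) and an adjusted p of 0.156 in limma. AGO4 was 8.20, 7.80 and 7.55 RPKM in D391N cells and 10.8, 8.73 and 15.2 RPKM in control cells, again without overlap but with a wide spread among the control libraries. Its log2 difference was -0.52 ± 0.22 (SE), with a 95% interval from -1.05 to 0.01. AGO1 was 18.5, 16.8 and 17.1 RPKM in D391N cells and 19.8, 18.8 and 17.2 RPKM in control cells, and its log2 difference of -0.09 ± 0.13 (SE) equalled the median of all genes to 2 decimals and turned to 0.13 after median centring.

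The ratio of AGO3 to AGO4 was 1.94, 2.50 and 2.25 in D391N cells and 1.18, 1.53 and 0.829 in control cells, without overlap and without a test of the difference between the genes. This separation follows from the gene levels, as AGO3 was higher and AGO4 lower in every D391N library. The ratios of AGO1 to AGO4, at 2.15 to 2.27 and 1.13 to 2.15, and of AGO2 to AGO1, at 1.41 to 2.95 and 1.82 to 2.60, overlapped between D391N and control cells. Most AGO4 reads (97.7%) belonged to the full-length mRNA ENST00000373210, at 4.55, 6.38 and 5.22 RPKM in D391N cells and 6.06, 6.67 and 8.26 RPKM in control cells, and for this transcript the groups overlapped. The remaining AGO4 sum came mostly from ENST00000496257, a fragment of 297 nt from the 3′ part of the gene worth a mean of 8.73 reads, at 3.54, 1.16 and 2.21 RPKM in D391N cells and 4.55, 1.91 and 6.85 RPKM in control cells. For AGO3, the mRNA ENST00000373191 with a 3′ UTR of 16758 bases took 83.5% of the reads, at 7.24, 6.86 and 4.01 RPKM in D391N cells and 6.001, 4.72 and 3.9999 RPKM in control cells. The shorter AGO3 mRNA ENST00000246314 measured 3.75, 4.34 and 6.53 RPKM in D391N cells and 2.66, 4.85 and 3.84 RPKM in control cells. ENST00000324350, which shares the 5′ part of the coding sequence, measured 2.11 to 4.51 RPKM in D391N cells and 2.21 to 2.53 RPKM in control cells. All 5 AGO3 transcripts tested had log2 differences above 0, and none of them had groups that did not overlap.

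AGO1 was divided between the long mRNA ENST00000373204, with 10928 bases of 3′ UTR, and ENST00000373206, with 1354 of those bases. The long form measured 12.6, 16.6 and 13.2 RPKM in D391N cells and 12.1, 13.2 and 12.9 RPKM in control cells. The short form was nearly absent from replicate 2 of D391N, at 0.180 RPKM, compared with 5.90 and 3.94 RPKM in the other D391N libraries and 4.34 to 7.73 RPKM in control cells. In that library the posterior standard deviation was 1.16 on the log2 scale, compared with 0.07 to 0.14 in the others, and the sum of both forms at 16.8 RPKM was close to that of the other libraries.

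AGO2 (ENSG00000123908) was the gene whose D391N libraries differed most among themselves. Its level was 54.5, 25.2 and 24.1 RPKM in D391N cells and 36.0, 40.0 and 44.8 RPKM in control cells. Replicate 1 of D391N was above, and replicates 2 and 3 below, every control library. The log2 difference was -0.32 ± 0.32 (SE) with an adjusted p of 0.590 in limma. Without replicate 1 of D391N it was -0.70 with an adjusted p of 0.042, in a comparison that called 2261 genes (10.9%) instead of 29. The low values of replicates 2 and 3 coincided with those of ENST00000517293, a transcript of 422 nt with 4 exons and no defined coding sequence that matches positions 88 to 463 of the full-length mRNA. It measured 21.6, 2.38 and 1.69 RPKM in D391N cells and 15.04, 17.4 and 21.5 RPKM in control cells, and was worth a mean of 38.4 reads. Without this transcript the AGO2 sum was 33.0, 22.8 and 22.4 RPKM in D391N cells and 21.0, 22.6 and 23.3 RPKM in control cells, with overlapping groups. It took 31.5% of the RPKM sum but 2.99% of the AGO2 reads at the GENCODE 44 lengths. Replicate 1 of D391N remained above every control library without it. In that library ENST00000524328, a coding transcript of 316 nt chosen after its values were seen, was high at 15.6 RPKM, compared with 4.98 and 2.37 RPKM in the other D391N libraries and 2.86, 2.76 and 3.29 RPKM in control cells, and its values were worth a mean of 3.95 reads. The full-length mRNA ENST00000220592 measured 9.09, 5.84 and 12.1 RPKM in D391N cells and 12.8, 13.6 and 10.5 RPKM in control cells. At its GENCODE 44 length of 14595 nt it held 83.7% of the reads, yet its values were worth a mean of only 124 reads. The length in the authors' transcript set may differ, so the read shares of AGO2 transcripts are uncertain. The shorter coding mRNA ENST00000519980 measured 5.46, 9.28 and 6.13 RPKM in D391N cells and 3.82, 2.96 and 6.63 RPKM in control cells. Summed over protein-coding transcripts only, the AGO2 log2 difference was 0.23, of the opposite sign.

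The shares of the Argonaute genes in their common sum were compared because a ratio within a library does not depend on its scaling. AGO2 held 45.4% to 49.9% of the sum in control cells, 56.1% in replicate 1 of D391N and 36.4% and 36.6% in replicates 2 and 3. AGO3 held 16.4%, 28.2% and 25.8% in D391N cells and 16.1%, 16.5% and 14.0% in control cells, a difference of 7.96 percentage points with a two-sided exact permutation p of 0.2. With 3 libraries against 3 the smallest p this test can give is 0.1. For AGO1, AGO2 and AGO4 the differences were 0.626, -5.21 and -3.37 percentage points with exact permutation p of 0.8, 0.4 and 0.3, and after adjustment over the 4 genes the lowest p was 0.533. Restricted to the longest transcript of each gene, the order in control cells was AGO1 at 34.5% ± 1.72 and AGO2 at 33.2% ± 3.37, followed by AGO4 at 19.0% ± 3.65 and AGO3 at 13.3% ± 2.63 (SD, n = 3). AGO2 led the Argonaute genes by summed RPKM in every control library, whereas by the longest transcript it was above AGO1 in control replicates 1 and 2 and below it in replicate 3.

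**Figure D4:**
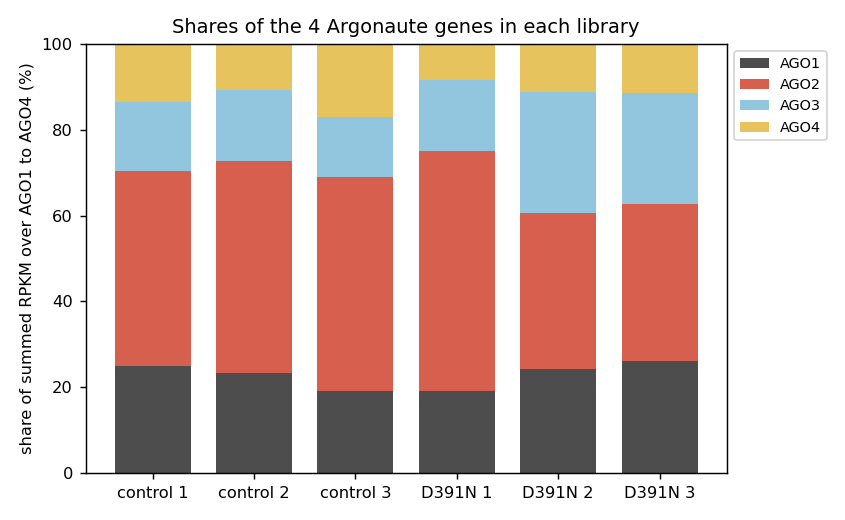
Share of AGO1, AGO2, AGO3 and AGO4 in their summed RPKM in each library (stacked bars, percent). AGO3 held 14.0% to 16.5% in control libraries and 16.4% to 28.2% in D391N libraries, and replicate 1 of D391N resembled the control libraries more than the other D391N libraries.

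Across all transcripts of the 10 genes, 64 of 111 had a mean of at least 1 RPKM and were tested, 33 with a log2 difference above 0 and 31 below. None passed an adjusted p of 0.05, 11 passed an unadjusted p of 0.05 (17.6% of all transcripts tested did), and 33 of all 54671 transcripts tested (0.0604%) were called. For 15 of the 64 the groups did not overlap, 9 higher and 6 lower in D391N, which is 23.4% compared with 25.8% of all transcripts tested, 10.1% higher and 15.6% lower. The lowest adjusted p was 0.125, for the DICER1 mRNA ENST00000393063, whose value was worth a mean of 1.37 reads. In the comparison without replicate 1 of D391N, which called 9.07% of all transcripts tested, 5 of the 64 were called: AGO2 ENST00000517293 with a log2 difference of -3.09, DICER1 ENST00000527414 with 1.536, and DROSHA ENST00000512166, ENST00000512124 and ENST00000510375 with 1.5, 2.53 and 4.62. ENST00000510375 measured 0.138, 0.135 and 0.122 RPKM in control cells, worth at most 0.0117 reads in any control library. Its values were worth 10.6 reads in replicate 2 of D391N and 1.38 reads in replicate 3. The size of its difference is therefore set against values at the limit of detection.

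Among 43 further pathway genes tested, in lists of cofactors and partners, none passed an adjusted p of 0.05. At an unadjusted p of 0.05, 14 passed, 12 higher and 2 lower, compared with 22.7% of all genes tested, 6.76% higher and 16% lower. The groups did not overlap for 21 of the 43, 15 higher and 6 lower, compared with 31.2% of all genes tested, 10.5% higher and 20.7% lower. The only called gene of these lists was the expressed DIS3L2, with a log2 difference of 5.08 ± 0.18 (SE) and an adjusted p of 0.000268 in limma. The difference of DIS3L2 was smaller over protein-coding transcripts only, at 3.19, and in summed reads, at 2.92. Its partners in let-7 decay were not called. LIN28B, which binds the let-7 precursor, measured 28.1, 31.9 and 30.7 RPKM in D391N cells and 25.3, 22.3 and 15.8 RPKM in control cells, with a log2 difference of 0.54 ± 0.20 (SE) and an adjusted p of 0.184. TUT4, a terminal uridylyl transferase, measured 71.0, 121 and 121 RPKM in D391N cells and 67.7, 66.2 and 68.4 RPKM in control cells, with a log2 difference of 0.59 ± 0.23 (SE) and an adjusted p of 0.204. For both, every D391N library was above every control library, and without replicate 1 of D391N the TUT4 difference was 0.84 with an adjusted p of 0.023. TUT7, the second transferase of this step, measured 21.0, 27.0 and 24.3 RPKM in D391N cells and 24.0, 20.4 and 23.5 RPKM in control cells, with overlapping groups. LIN28A and TRIM71 were at no more than 1.28 and 0.836 RPKM in any library and were not tested.

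The GW182 genes, whose proteins connect Argonaute to deadenylation, differed little. TNRC6A, TNRC6B and TNRC6C had log2 differences of 0.09 ± 0.14, 0.15 ± 0.19 and 0.20 ± 0.24 (SE), with overlapping groups, and that of TNRC6B was -0.20 in summed reads. Of the 8 genes of this list, only MOV10, an RNA helicase found with Argonaute, had an unadjusted p under 0.05. It measured 11.4, 10.5 and 9.35 RPKM in D391N cells and 15.6, 16.1 and 15.7 RPKM in control cells, with a log2 difference of -0.60 ± 0.14 (SE) and an adjusted p of 0.104. In summed reads this difference was -0.88 with an adjusted p of 0.029. All 7 chaperones that load Argonaute had log2 differences above 0, compared with 42.7% of all genes tested, and the list median was 0.54. For 5 of them every D391N library was above every control library, compared with 10.5% of all genes tested, and the list was not tested as a set. PTGES3, the HSP90 co-chaperone p23, measured 333, 462 and 383 RPKM in D391N cells and 217, 233 and 174 RPKM in control cells, with a log2 difference of 0.91 ± 0.21 (SE) and an adjusted p of 0.102. DNAJA2, a co-chaperone of HSC70, measured 96.0, 116 and 96.3 RPKM in D391N cells and 60.3, 67.5 and 59.2 RPKM in control cells, with a log2 difference of 0.71 ± 0.15 (SE) and an adjusted p of 0.091.

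Of the 12 Microprocessor cofactors, 4 were higher and 3 lower without overlap, compared with 10.5% and 20.7% of all genes tested, and the list median was -0.003. DDX5, an RNA helicase of the complex, measured 832, 1395 and 1264 RPKM in D391N cells and 715, 641 and 537 RPKM in control cells, with a log2 difference of 0.86 ± 0.28 (SE) and an adjusted p of 0.157. METTL3, which methylates adenosines in primary microRNA transcripts, measured 26.7, 30.5 and 29.2 RPKM in D391N cells and 44.5, 42.2 and 41.1 RPKM in control cells, with a log2 difference of -0.56 ± 0.13 (SE) and an adjusted p of 0.102. Of the 4 export partners, XPO1 measured 268, 423 and 361 RPKM in D391N cells and 189, 205 and 152 RPKM in control cells, with a log2 difference of 0.93 ± 0.23 (SE) and an adjusted p of 0.111. Of the 4 tested genes of Argonaute turnover, PPP6C, the phosphatase that removes phosphates from AGO2, measured 23.1, 31.6 and 29.7 RPKM in D391N cells and 13.7, 16.5 and 11.1 RPKM in control cells, with a log2 difference of 1.03 ± 0.20 (SE) and an adjusted p of 0.088. Of the 4 genes of RNA editing and microRNA decay, PNPT1 and ERI1 were higher and ADAR lower in every D391N library, and none was called. MOV10, PTGES3, DNAJA2, DDX5, METTL3, XPO1, PPP6C, PNPT1, ERI1 and ADAR were named after their values were seen. Without replicate 1 of D391N, 8 of the 43 genes were called, namely XPO1, DDX5, SAFB, PTGES3, DNAJA2, PPP6C and TUT4 as higher and MOV10 as lower, in a comparison that called 10.9% of all genes tested.

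**Figure D5:**
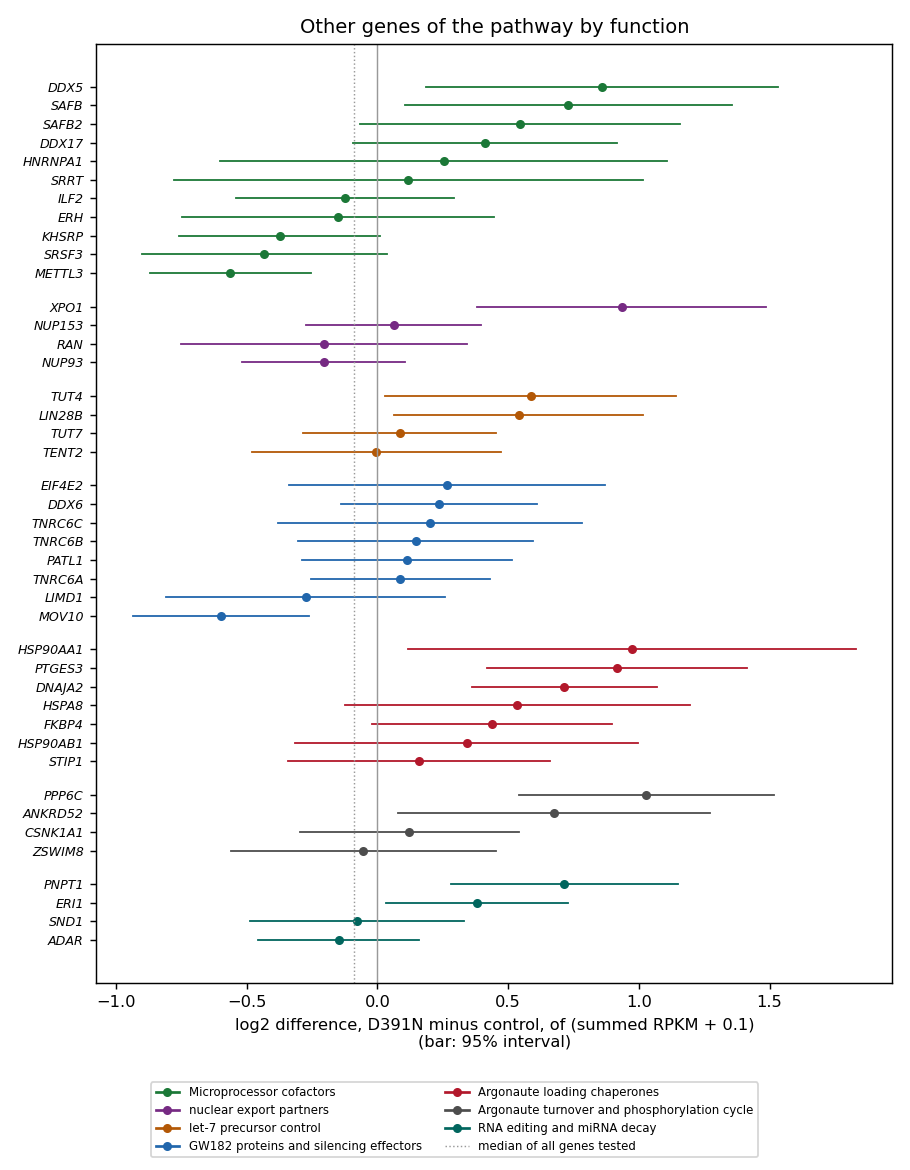
Log2 difference (D391N minus control, of summed RPKM + 0.1) with 95% interval for further pathway genes tested, grouped by function, 3 libraries in each group. The 7 chaperones (red) all lie above 0, and the GW182 genes TNRC6A, TNRC6B and TNRC6C have intervals that include 0.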

How the data were processed

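The 50-base single-end reads had been trimmed by the authors (cutadapt), mapped with Segemehl against the Ensembl transcript set of GRCh38 (hg38), protein-coding and non-coding RNAs merged, and turned into expression estimates with BitSeq. Versions are not given in the sources used here. For each transcript and library, the deposited values are natural log RPKM (the posterior mean) and the variance around it. BitSeq divides ambiguous reads among isoforms, so these values are estimates and not counts.

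Here the exponential of the deposited mean was taken as RPKM and summed over the transcripts of each Ensembl gene. Symbols were matched for 88.2% of gene identifiers. Lengths and biotypes came from GENCODE 44 on GRCh37 and matched 90.2% of transcripts. These lengths may differ from those of the authors' transcript set. The exon and coding positions of GENCODE 44 were used only to count exons and to place each isoform on the longest coding transcript of its gene. The effective number of reads behind a value was computed from its posterior variance, as for a transcript with unambiguous reads. Ambiguity between isoforms therefore lowers this number too. Depth was estimated from the floor that BitSeq gives transcripts without reads (median over 689 transcripts, with quartiles of 9366000 to 13440000 and 20750000 to 33940000 reads over the libraries), so it is approximate. D391N (n = 3) and control (n = 3) libraries were grouped from the labels and compared with limma 3.58.1 in R 4.3.3 on log2(RPKM + 0.1), with an intensity trend, a minimum mean of 1 RPKM and Benjamini-Hochberg adjustment over all genes or transcripts. The test was also run on simulated data. Fold changes on this scale understate the change of low genes. Argonaute shares were compared with a two-sided exact permutation test.

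The text names the 10 genes, for each gene up to 3 transcripts with the highest RPKM (the top transcript and those with a mean share of at least 10%), any transcript or listed pathway gene with an adjusted p under 0.05, DIS3L2, LIN28B, TUT4, TUT7, the TNRC6 genes and DICER1-AS1, MIR1306 and MIR3618. Some listed genes are not reported here. Genes and lists were chosen with earlier results of these data known. Alternatives changed the pseudocount, the filter, the scaling, the trend, the block, the transcripts summed and the libraries used. Summed reads and a minimum of 10 reads were added after seeing the data.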

Additional observations from a re-analysis of the deposited data

How the results depend on the processing

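The counts of called genes depended on the processing more than the values of the 10 genes did. The count of 29 genes became 61 and 16 with pseudocounts of 1 and 0.01, 18 without a filter, 14 after median centring, 17 after quantile normalization, 593 over protein-coding transcripts only and 646 in summed reads, and ranged from 2 to 2261 when single libraries were left out, with 2261 without replicate 1 of D391N, 11 without replicate 2 of D391N, and 2 without replicate 3 of D391N or without any of the control libraries. The count of 33 transcripts became 142 with a pseudocount of 1, 18 without a filter and 52 without the trend, and ranged from 2 to 4961 when single libraries were left out, with 4961 without replicate 1 of D391N, 17 and 4 without replicates 2 and 3, and 2, 3 and 2 without control replicates 1, 2 and 3. Of the 10 genes, 0 were called in the main comparison, 1 over protein-coding transcripts only (TARBP2, on transcripts each worth a mean of at most 1.83 reads), and 0 to 1 with a library left out (AGO2 without replicate 1 of D391N). Of their transcripts 0 to 5 were called with a library left out, and of the 43 further pathway genes 0 to 8, 4 over protein-coding transcripts only (PTGES3, PPP6C and MOV10 among them) and 3 in summed reads (DNAJA2, MOV10 and METTL3).

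Same-numbered libraries of the groups correlated in their deviations from the group means at 0.0699, 0.221 and -0.111, so the numbers do not pair the libraries. With the replicate number as a block, 2 genes and 7 transcripts were called and none of the 10 genes or their transcripts.

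Of the 10 genes, 7 kept their direction under all 16 alternatives. XPO5 turned to -0.27 over protein-coding transcripts and -0.18 in summed reads, AGO1 to 0.13 after median centring, 0.0067 after quantile normalization and 0.061 in summed reads, and AGO2 to 0.23 over protein-coding transcripts. With single libraries left out the AGO2 difference ranged from -0.70 to -0.11. TNRC6B turned to -0.20 in summed reads. With single libraries left out, TUT7 ranged from -0.0020 to 0.18, TNRC6B from -0.027 to 0.26, DROSHA ENST00000513349 from -0.0094 to 0.18, DGCR8 ENST00000351989 from -0.21 to 0.17 (0.036 after median centring), DICER1 ENST00000532458 from -0.24 to 0.57, XPO5 ENST00000450462 from -0.29 to 0.67, PRKRA ENST00000463882 from -0.18 to 0.17 and AGO3 ENST00000324350 from -0.064 to 0.46. The Argonaute share differences ranged from -1.01 to 2.65 percentage points for AGO1, -11.8 to -1.87 for AGO2, 5.60 to 11.5 for AGO3 and -4.86 to -1.79 for AGO4, and over protein-coding transcripts only those of AGO1 and AGO2 were -3.99 and 3.81. The cause of these changes was not tested.

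Isoform shares depend on whether they are taken per length or in reads, because short transcripts weigh more per length. In reads, ENST00000512302 held 10.03% of DROSHA instead of 28.1%, ENST00000351989 45.3% of DGCR8 instead of 36.99%, ENST00000265351 79.2% of XPO5 instead of 33.5%, ENST00000373204 90.7% of AGO1 instead of 74.999%, ENST00000517293 2.99% of AGO2 instead of 31.5%, ENST00000373191 83.5% of AGO3 instead of 36.4% and ENST00000373210 97.7% of AGO4 instead of 65.5%.

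In simulated data of this spread the test recovered 16% of genes changed by a log2 difference of 1 and 57% of those changed by 2. It recovered none of the transcripts changed by either amount. The largest difference among the machinery genes in the main comparison, -0.62 for TARBP2, was smaller in size than these changes. The lack of calls among the machinery genes and their transcripts therefore does not show that they did not differ. Summed reads leave out transcripts without a known length, among them DICER1 ENST00000532458. With 3 libraries in a group, transcripts whose values were worth a few reads cannot show moderate differences. Among them are 29 of the 111 whose values were worth under 3 reads in every library. Both depth, at 19120000 to 29070000 reads, and the sharing of reads between isoforms bear on this number.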
